A study of Mus musculus with 4 samples.

Results

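The p53 target genes examined here are 10 mouse genes that the transcription factor p53 is known to switch on: Cdkn1a, Mdm2, Bax, Ccng1, Trp53inp1, Sesn1, Perp, Plk2, Ddit4l and Phlda3. They were found by gene symbol in the annotation of the Affymetrix mouse whole-genome array, where 9 of the 10 genes were named on 21 of 45101 probe sets. A probe set is a group of short probes for 1 transcript region. Bax, which encodes a pore-forming protein of cell death, and Trp53, the gene of p53 itself, had no probe set named for them in the annotation used here and were not analysed. The first group comprised GFP-positive kidney cells labelled Tfrc-/-, which descend from donor embryonic stem cells that carried green fluorescent protein (GFP) and a deletion of the transferrin receptor gene Tfrc. The second group comprised GFP-negative wildtype kidney cells of the host. Both groups were sorted from the same kind of organ, chimeric kidneys of mouse embryos at day 15.5 made by injecting 3 to 5 donor cells into a wildtype blastocyst, after digestion with collagenase and trypsin, and each was profiled on 2 arrays called biological replicates. No array held donor-derived cells with Tfrc intact, so the deletion and other differences between donor line and host cannot be told apart, and the labels do not say how many clones the line held or whether kidneys were pooled.

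p53 is held low in unstressed cells by the ubiquitin ligase Mdm2 and accumulates after DNA damage, loss of growth support and other stresses. It then raises genes that stop the cell cycle, start cell death, restrain growth signalling through mTOR, and shut p53 off again. In the developing mouse kidney, excess p53 activity is known to impair the ureteric bud and the nephron progenitors, and iron chelators are known to raise p53 in cultured cells.

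The members had no common direction. On arrays labelled Tfrc-null, 6 of the 9 measured genes had a lower mean and 3 a higher mean than on wildtype arrays, and the median log2 difference was -0.24, beside 0.04 over all 18194 genes. Perp, Plk2 and Trp53inp1 stood furthest below their wildtype values, at 51.5%, 59.5% and 61.4% of them, and Cdkn1a and Ccng1 had the highest relative means, at 129% and 124%. None of the 9 passed an adjusted p of 0.05 in limma's moderated test over all genes, and neither did any other gene (0% of 18194). At an unadjusted p under 0.05 stood 2 members, Perp and Trp53inp1, both lower, against 8.02% of all genes in either direction and 3.98% lower. The groups did not overlap for 4 members, 3 lower (Perp, Trp53inp1, Ddit4l) and 1 higher (Ccng1), against 34.9% of all genes, 14.3% lower and 20.6% higher, and no member combined this with a 2-fold difference, which 2.66% of all genes did. The median depended on single arrays: it was 0.00 without labelled Tfrc-null replicate 2, with 5 members higher and 4 lower, and -0.59 without wildtype replicate 2.

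**Figure D1:**
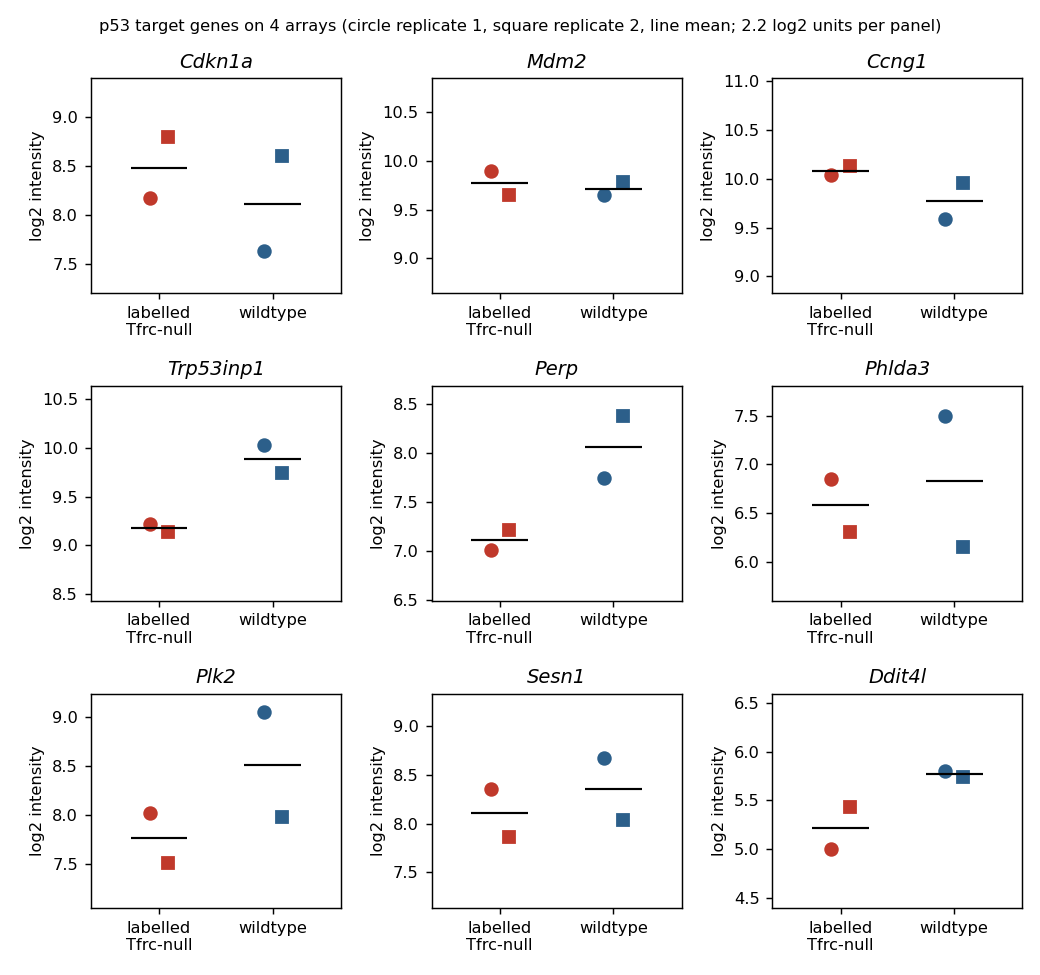
Log2 intensity (vertical axes) of the 9 measured p53 target genes on each array, with arrays labelled Tfrc-null on the left in red and wildtype arrays on the right in blue. Circles are replicate 1, squares replicate 2 and lines group means, and every panel spans the same number of log2 units. Both red points lie below both blue points for Trp53inp1, Perp and Ddit4l and above them for Ccng1, while Plk2, Sesn1 and Phlda3 are higher in replicate 1 of both groups.

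The Tfrc signal itself was not lower on the arrays labelled Tfrc-null. Its brightest probe set read 2509 and 3175 there, against 1759 and 2348 on wildtype arrays. Of all 6, 5 had a higher mean there, and the other was above the control level on no array. The labels do not say which part of the gene is missing, and probes outside that part do not check the label, so every direction below rests on it. All 6 cap mesenchyme genes, which mark nephron progenitors, lay above the control level on at least 2 arrays. So did 15064 of all 18194 genes, so passing the control level does not single out kidney cells. That level is the brightest of the array's 27 probe sets for Bacillus subtilis RNA, 7.40 and 7.77 on the arrays labelled Tfrc-null and 7.18 and 9.08 on the wildtype arrays. Of the 21 probe sets of the members, 17 lay above it on all 4 arrays, 2 on none and 2 on some of them.

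The start regions of the members show where p53 could be looked for in sequence, though binding was not measured. The 250 bases before each annotated start were read from RefSeq promoter sequences of build GRCm38.p6, which held 10 such windows for 8 of the 10 members (none for Perp or Trp53inp1). They were searched on both strands for exact matches to the 10-base p53 half-site consensus, whose reverse complement is the same motif. A match was present in 6 of the 10 windows, 1 window for each of 6 genes including Bax, while 7.13% of all 32851 promoter windows held one. The windows below, printed with half-site matches in capitals, are those of the target best known for a p53 response (Cdkn1a), of both feedback genes (Mdm2 and Ccng1) and of 1 member with lower values (Ddit4l). In order they are chr17:29090729-29090978 on the plus strand, chr10:117710759-117711008 and chr11:40755287-40755536 on the minus strand, and chr3:137623422-137623671 on the plus strand.
Cdkn1a: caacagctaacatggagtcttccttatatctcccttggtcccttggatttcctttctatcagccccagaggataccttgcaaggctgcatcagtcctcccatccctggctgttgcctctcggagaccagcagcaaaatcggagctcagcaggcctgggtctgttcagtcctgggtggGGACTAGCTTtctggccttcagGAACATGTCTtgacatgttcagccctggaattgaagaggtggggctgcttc
Mdm2: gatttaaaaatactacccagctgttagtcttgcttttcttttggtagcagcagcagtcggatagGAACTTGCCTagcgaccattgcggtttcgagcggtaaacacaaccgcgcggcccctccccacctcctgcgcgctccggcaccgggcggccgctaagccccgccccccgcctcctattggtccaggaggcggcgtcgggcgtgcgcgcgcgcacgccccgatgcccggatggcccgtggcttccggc
Ccng1: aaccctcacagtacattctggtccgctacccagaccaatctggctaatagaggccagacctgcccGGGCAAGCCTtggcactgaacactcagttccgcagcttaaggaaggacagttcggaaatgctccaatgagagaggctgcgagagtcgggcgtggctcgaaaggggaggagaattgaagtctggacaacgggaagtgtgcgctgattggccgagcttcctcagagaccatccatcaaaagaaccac
Ddit4l: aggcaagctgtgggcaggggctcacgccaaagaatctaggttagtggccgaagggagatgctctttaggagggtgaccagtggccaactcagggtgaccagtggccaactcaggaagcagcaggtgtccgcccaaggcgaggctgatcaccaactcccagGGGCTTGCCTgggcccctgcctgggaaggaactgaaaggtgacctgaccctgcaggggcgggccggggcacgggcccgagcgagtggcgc
The printed Cdkn1a window, at the upstream of its 2 annotated starts, held 2 matches. They began 73 and 51 bases before that start with 12 bases between them, and a pair no more than 13 bases apart occurred in 0.0639% of all windows. The 10 bases directly after the second match (tgacatgttc) differ from the consensus at 1 base only. The exact search left them unmarked, so the pair in capitals need not be the best pair there. The window at the downstream Cdkn1a start (chr17:29093519-29093768) held no match. The single matches began 186 bases before the start in Mdm2, 185 in Ccng1 and 90 in Ddit4l. Genes with a match stood on both sides of the wildtype level, with a log2 difference of 0.31 for Ccng1 and of -0.56 for Ddit4l. Plk2 and Phlda3 held none in this window, and Sesn1 held 1 at its downstream start and none at its upstream start. A match is a description of letters and not a bound site.

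Of the genes that feed back on p53, Mdm2 had nearly the same level in both groups and Ccng1 a slightly higher one on arrays labelled Tfrc-null. Mdm2, the ligase that marks p53 for degradation, read 955 and 802 on the arrays labelled Tfrc-null, against 804 and 882 on the wildtype arrays. The groups overlapped, and the log2 difference of 0.06 (SE 0.20) turned to -0.07 without labelled Tfrc-null replicate 1 and to -0.01 without wildtype replicate 1. A dimmer Mdm2 probe set read 22.3 and 32.3 against 12.6 and 21.3, a log2 difference of 0.71 without overlap, so the probe sets differed in size. The remaining Mdm2 probe set was not above the control level on any array.

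Ccng1 encodes cyclin G1, which recruits a phosphatase to Mdm2 and is among the most regular p53 targets in mouse tissues. It read 1049.8 and 1120.2 on the arrays labelled Tfrc-null, against 771 and 998 on the wildtype arrays. Both values labelled Tfrc-null were higher, with a log2 difference of 0.31 (SE 0.21, limma adjusted p = 0.855) that was smaller than the gap of 0.37 between the wildtype arrays. Its other probe sets read 38.1 and 30.3 against 20.3 and 19.6, and 23.2 and 24.6 against 17.8 and 11.6. Both also lay higher without overlap, by 0.77 and 0.73 on the log2 scale, with adjusted p of 0.471 and 0.643 in limma's fit over 45037 probe sets. All 3 Ccng1 probe sets thus lay higher without overlap, as 33.5% of all probe sets tested lay apart in one direction or the other. Without wildtype replicate 1 the difference of the brightest was 0.12.

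The 2 members that act on the cell cycle had opposite mean differences, and in both the replicates of a group lay far apart. Cdkn1a encodes p21, an inhibitor of cyclin-dependent kinases that halts the cycle. It read 287 and 444 on the arrays labelled Tfrc-null, against 198 and 389 on the wildtype arrays. The groups overlapped with a log2 difference of 0.36 (SE 0.40, limma adjusted p = 0.942), and 13% of all genes were higher by at least as much. The difference was -0.12 without wildtype replicate 1, and its second probe set read 67.1 and 91.4 against 85.8 and 90.03, a log2 difference of -0.17. The 3 genes most like Cdkn1a in centred log2 values over the 4 arrays, among 13572 genes above the control level on all of them, were Tsc22d4, Mien1 and Mfsd12, at Euclidean distances of 0.0404, 0.0417 and 0.0542. Each of them was higher in replicate 2 of both groups, which follows from choosing them by nearness to Cdkn1a on these same arrays.

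Plk2, a polo-like kinase of centriole duplication, read 259 and 183 on the arrays labelled Tfrc-null, against 530 and 252 on the wildtype arrays. The overlap was narrow: replicate 1 of the cells labelled Tfrc-null lay just above wildtype replicate 2. The mean log2 values differed by -0.75 (SE 0.41, limma adjusted p = 0.762), -1.03 within replicate 1 and -0.47 within replicate 2. It was -0.21 without wildtype replicate 1 and -1.28 without wildtype replicate 2, and the gap between the wildtype arrays was 1.07. With the mean of both probe sets it was -0.43, and the second of them was above the control level on 1 array.

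Of the members tied to cell death and survival, Trp53inp1 and Perp were lower on arrays labelled Tfrc-null without overlap, as were 14.3% of all genes, and Phlda3 had overlapping groups. Trp53inp1 encodes a stress protein that promotes phosphorylation of p53 and takes part in autophagy. It read 596 and 564 on the arrays labelled Tfrc-null, against 1042 and 856 on the wildtype arrays, which gave 580.0 ± 22.6 against 949 ± 132 (SD, n = 2 each). Both values labelled Tfrc-null lay well below both wildtype values, and the 1.63-fold lower level (log2 difference -0.70, SE 0.20, limma adjusted p = 0.437) exceeded the gaps of 0.08 and 0.28 within the groups. The difference was -0.81 within replicate 1 and -0.60 within replicate 2. It was -0.16 with the mean of both probe sets, the second of which was not above the control level on any array.

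Perp encodes a tetraspan membrane protein that takes part in p53-dependent death and is also a building part of desmosomes, the junctions that rivet epithelial cells together. It read 129 and 148 on the arrays labelled Tfrc-null, against 215 and 334 on the wildtype arrays, or 138.5 ± 13.9 against 275 ± 84.0 (SD, n = 2 each). The groups were apart, with a 1.94-fold lower level (log2 difference -0.96, SE 0.27, limma adjusted p = 0.439), and 1.76% of all genes were lower by at least as much. The difference was -0.74 within replicate 1 and -1.17 within replicate 2. Without wildtype replicate 2 it was -0.64.

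Phlda3 encodes a small lipid-binding protein that restrains the kinase Akt. It read 116 and 79.2 on the arrays labelled Tfrc-null, against 180.4 and 71.0 on the wildtype arrays. The wildtype values enclosed the others, the log2 difference of -0.24 had an SE of 0.48, and it turned to 0.43 without wildtype replicate 1 and to 0.03 without labelled Tfrc-null replicate 2.

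**Figure D2:**
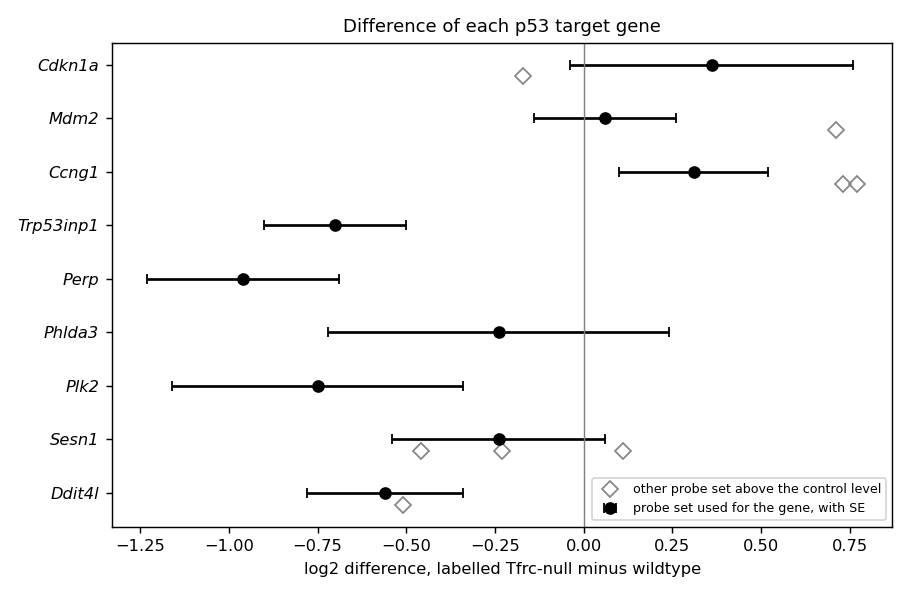
Log2 difference of each p53 target gene, labelled Tfrc-null minus wildtype (horizontal axis). Filled circles with bars are the probe set used for the gene and its standard error, and open diamonds are its other probe sets above the control level on all arrays. Differences run from -0.96 (Perp) to 0.36 (Cdkn1a), and all 3 Ccng1 probe sets lie right of 0.

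Both members that restrain mTOR, the kinase of growth signalling, had lower means on arrays labelled Tfrc-null. Ddit4l, also called REDD2, read 32.1 and 43.03 on the arrays labelled Tfrc-null, against 55.9 and 53.4 on the wildtype arrays. Both values labelled Tfrc-null were the lower ones, with a log2 difference of -0.56 (SE 0.22, limma adjusted p = 0.626) against gaps of 0.42 and 0.06 within the groups. A second probe set read 22.8 and 24.5 against 26.3 and 42.9, and was also lower without overlap (log2 difference -0.51). The remaining one rested on 3 arrays above the control level and read 19.5 and 19.8 against 7.07 and 22.7. The difference was -0.34 without labelled Tfrc-null replicate 1 and -0.14 with the mean of all its probe sets.

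Sesn1 encodes sestrin 1, which relays amino acid shortage to mTOR and takes part in antioxidant defence. It read 327 and 233 on the arrays labelled Tfrc-null, against 406 and 262 on the wildtype arrays. The groups overlapped, the log2 difference of -0.24 had an SE of 0.30, and it turned to 0.07 without wildtype replicate 1. Of its other probe sets, 1 with steadier replicates read 237 and 251 against 276 and 296 and lay lower without overlap, by 0.23 on the log2 scale. Another read 132 and 68.6 against 196 and 87.4, and a dim one 12.1 and 13.8 against 11.5 and 12.4. The brightest 2 probe sets carry the array's suffix for probes that can bind more than 1 transcript.

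Several members differed between replicates as much as between groups. The gap between replicate 1 and replicate 2 had the same sign in both groups for 7 of the 9 members. For 3 members (Trp53inp1, Perp and Ddit4l) the difference between groups was larger than the gap within either group. The shares of all genes with these features were not counted, so neither count is a trait of the members. Deviations of same-numbered arrays from their group means correlated at 0.512 across all 18194 genes. Cdkn1a was lower in replicate 1 than in replicate 2, by 0.63 among the cells labelled Tfrc-null (gap -0.63) and by more among wildtype cells (gap -0.97). Phlda3 was higher in replicate 1, with gaps of 0.54 and 1.34, as were Plk2 (0.50 and 1.07) and Sesn1 (0.49 and 0.63).

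Other measures differed by replicate number too. Hspa1a, a heat-shock chaperone gene that rises under protein stress and was chosen here after its values were seen, read 15.3 and 576 on the arrays labelled Tfrc-null, against 15.7 and 465 on the wildtype arrays, so that replicate 2 was the high one in both groups. Its close copy Hspa1b, whose probes can bind either gene, read 828 and 4734 against 1610.0 and 4835. Beta-actin probe sets at the 3' end read 5.89 and 7.21 times those at the 5' end, a measure of RNA integrity and amplification, on arrays labelled Tfrc-null and 5.51 and 6.49 times on wildtype arrays. The part of stress during cell preparation or of RNA quality in the members' values was not tested. Of the whole list of 14 genes that respond early to tissue dissociation, 5 had higher and 9 lower means on arrays labelled Tfrc-null, and the median log2 difference was -0.04, or 0.24 with 9 higher without labelled Tfrc-null replicate 1. The summed intensity of that list was 29027 and 36694 on arrays labelled Tfrc-null, against 33113 and 35258 on wildtype arrays.

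**Figure D3:**
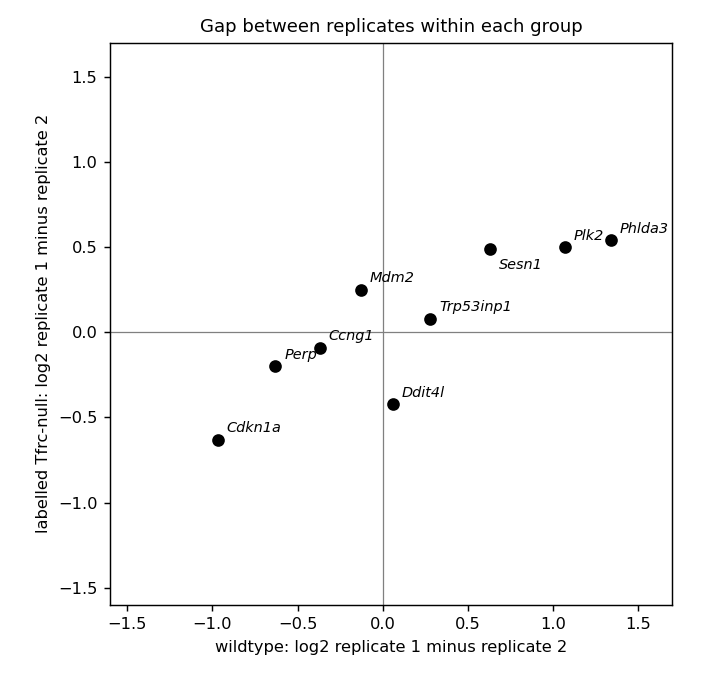
Log2 gap between replicate 1 and replicate 2 of each p53 target gene, in cells labelled Tfrc-null (vertical axis) and in wildtype cells (horizontal axis), 1 point per gene. Plk2, Sesn1 and Phlda3 lie at the upper right and Cdkn1a at the lower left, so their replicates differed the same way in both groups, and Mdm2 and Ddit4l lie where the signs differ.

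The values of Perp stood beside those of a list of epithelial junction genes, which also held keratin genes and the transcription factor gene Grhl2. Of 22 genes of that list measured, 21 lay above the control level on at least 2 arrays. Of these, 20 had a lower mean on arrays labelled Tfrc-null, 13 of them without overlap. Over all genes, 14.3% were lower without overlap, and 36.2% of those above that level were apart in either direction. The median log2 difference of the list was -0.75, and 17 of the 21 were lower without wildtype replicate 2. The summed intensity of the list was 5885 and 6297 on arrays labelled Tfrc-null, against 10755 and 10532 on wildtype arrays, and Pkp3 alone was above the control level on no array. Among desmosome genes, Jup, which encodes plakoglobin, read 233 and 173 against 898 and 537 (a log2 difference of -1.79, SE 0.32), and Dsc2, a desmosomal cadherin gene, read 53.2 and 71.6 against 124 and 169 (-1.23, SE 0.26). Both lay lower without overlap, and their limma adjusted p were 0.218 and 0.299. Dsp and Dsg2 also lay lower without overlap (-0.76 and -0.99). The groups overlapped for Pkp2 (-0.44, SE 0.33), Ppl (-0.23, SE 0.24) and Evpl, which had a higher mean (0.08, SE 0.50). Grhl2, a transcription factor of epithelia, read 195 and 180.2 against 664 and 494, and Cldn8, a tight-junction gene of the collecting duct, read 497 and 377 against 1032 and 1061. In sorted bulk cells, fewer cells of a type and less RNA per cell cannot be told apart, and the part of epithelial cell number in the Perp values was not tested.

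Trp63 encodes p63, a relative of p53 that keeps stratified epithelia and directly raises Perp there. Its brightest probe set read 20.9 and 12.8 on arrays labelled Tfrc-null, against 51.04 and 48.6 on wildtype arrays. Both values labelled Tfrc-null were lower, with a log2 difference of -1.61 (SE 0.28, limma adjusted p = 0.213). The other 3 of its 4 probe sets were above the control level on no wildtype array, and 2 of them on no array at all. The remaining one was just above it on both arrays labelled Tfrc-null. It read 7.52 and 8.89 there, against 5.80 and 7.88 on wildtype arrays (log2 difference 0.27, SE 0.24, groups overlapping). The ureteric bud genes, which mark the branching epithelium, had lower means in 9 of 9 measured members, with a median of -0.97. That median was -1.57 without wildtype replicate 1 and -0.70 without wildtype replicate 2, where 8 of 9 were lower. Stroma genes had higher means in 11 of 11, with a median of 0.69, and in 9 of 11 without wildtype replicate 2. Of all genes above the control level on at least 2 arrays, 57.8% had a higher mean. Summed over the ureteric bud list, the intensity was 1417 and 1216 on arrays labelled Tfrc-null, against 4739 and 3992 on wildtype arrays.

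**Figure D4:**
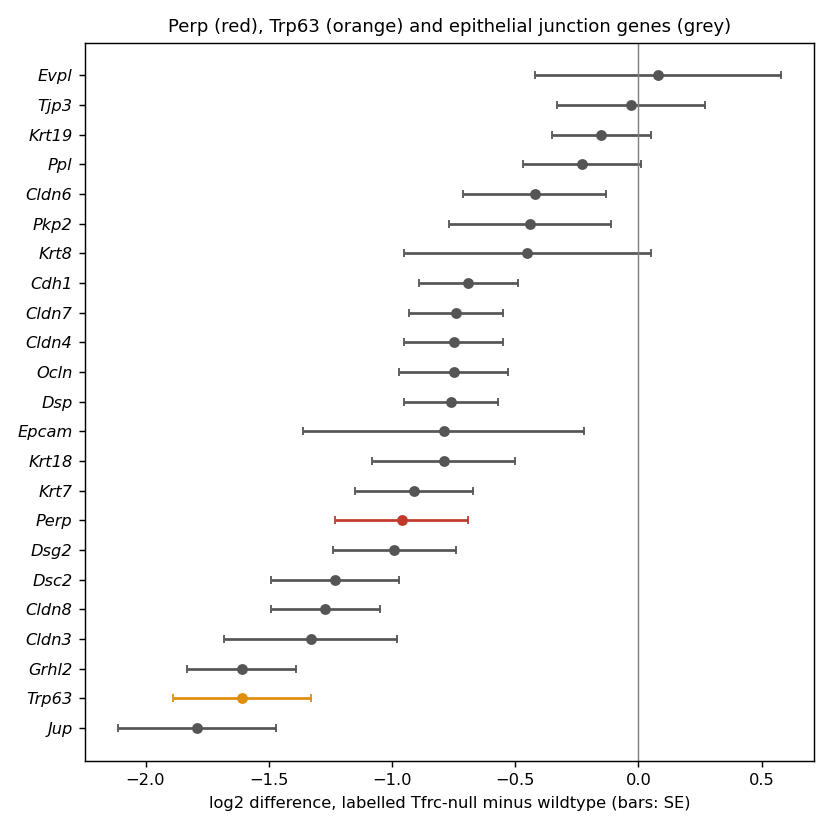
Log2 difference, labelled Tfrc-null minus wildtype (horizontal axis), of Perp in red, Trp63 in orange and 21 genes of the epithelial junction list in grey, ordered by size. Points are the fitted differences and bars their standard errors. Perp at -0.96 lies among the genes of that list, between the keratin gene Krt7 and Dsg2, and Evpl alone lies above 0.

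Most neutrophil, erythroid and endothelial markers also had lower means on arrays labelled Tfrc-null, while leukocyte genes had no common direction. Neutrophil genes summed to 145 and 568 on arrays labelled Tfrc-null, against 4465 and 7625 on wildtype arrays, with a lower mean in 5 of the 6 genes above the control level and Elane at or below it on every array. Erythroid genes summed to 76.3 and 56.4 against 606 and 1911, with a lower mean in all 4 genes above the control level and Epb42 at or below it on every array, as was the probe set named for Hba-a1 alone. Probe sets shared by Hba-a1 and Hba-a2 were not counted in this list. Endothelial genes had lower means in 8 of 8, with a median of -0.68 that was -0.28 without wildtype replicate 1, and leukocyte genes in 2 of 7 (5 without labelled Tfrc-null replicate 1 and 4 without wildtype replicate 2), with sums of 3059 and 2771 against 2976 and 3072 and Itgam at or below the control level. Of the 7 leukocyte genes, 2 lay lower and 2 higher without overlap, as did 14.3% and 20.6% of all genes. The part of these blood and endothelial cells in the values of Trp53inp1, Plk2 and the other members was not tested.

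Around the members, the wider p53 network had no common direction. Of 23 measured regulators and partners of p53, 10 had higher and 13 lower means on arrays labelled Tfrc-null, with a median log2 difference of -0.01. The groups did not overlap for 7, against 36.2% of all genes above the control level on at least 2 arrays. None of the 23 passed the threshold. After Trp63, those with the smallest p were Rchy1, another ligase for p53, Hipk2, a kinase that phosphorylates p53, and Chek1, a checkpoint kinase. Rchy1 read 266 and 297 against 217 and 218 (log2 difference 0.37, SE 0.18). Hipk2 read 1936 and 2052 against 2395 and 2694 (-0.35, SE 0.19), so that both differences were well under 2-fold. Mdm4, the partner of Mdm2, differed by 0.09 (SE 0.22), and Ppm1d, the phosphatase that ends the p53 response, by -0.08 (SE 0.22).

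Of 32 other measured targets of p53, 17 had higher and 15 lower means, with a median of 0.02 and none passing the threshold. Without overlap, 8 lay higher and 7 lower, against 36.2% of all genes above the control level on at least 2 arrays in either direction. Rprm, which encodes the cycle inhibitor Reprimo, read 150.1 and 44.6 on arrays labelled Tfrc-null, against 642 and 351 on wildtype arrays. This was the only one of the 32 at least 2-fold apart without overlap (log2 difference -2.54, SE 0.63, limma adjusted p = 0.364). Ckap2, a spindle protein gene, read 243 and 234 against 164 and 145 (0.63, SE 0.19), and Steap3, an endosomal ferrireductase gene that is also a p53 target, read 30.8 and 27.8 against 16.9 and 20.8 (0.64, SE 0.20). Sfn, an epithelial 14-3-3 protein gene that holds cells in G2, read 21.4 and 27.8 against 33.9 and 35.0 (-0.50, SE 0.21). Among death genes of that list, Pmaip1 lay lower without overlap, by -0.39 (SE 0.27). Pidd1 and Eda2r lay higher without overlap, by 0.24 (SE 0.18) and 0.29 (SE 0.21). The groups overlapped for Bbc3, which differed by -0.06 (SE 0.20), and for the death receptor genes Fas, by 0.03 (SE 0.22), and Tnfrsf10b, by 0.66 (SE 0.62).

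Relatives of the members by sequence had no common direction either. Of 21 paralogs, 12 had higher and 9 lower means, with a median of 0.03 and none past the threshold. Cdkn1c, a cycle inhibitor related to Cdkn1a and an imprinted gene, read 206 and 100.2 on arrays labelled Tfrc-null, against 660 and 524 on wildtype arrays (log2 difference -2.03, SE 0.38, limma adjusted p = 0.242). Cdkn1b, the other gene of that family, read 605 and 704 against 775 and 1040.3 (-0.46, SE 0.23). The family thus had Cdkn1b and Cdkn1c lower without overlap and Cdkn1a with overlapping groups. Among relatives of Bax, Bcl2, which protects from cell death, differed by -0.40 (SE 0.19) and Bak1, which promotes it, by 0.43 (SE 0.23). The other relatives of Bax on the list differed less. Bad differed by 0.33 (SE 0.22), Bok by 0.11 (SE 0.18) and Bcl2l1 by 0.02 (SE 0.21). Bcl2l11 differed by -0.04 (SE 0.24), Mcl1 by -0.10 (SE 0.19) and Bid by -0.18 (SE 0.27). The sestrin Sesn2 differed by 0.43 (SE 0.27) and Sesn3 by 0.23 (SE 0.28), and Ddit4, the relative of Ddit4l, by 0.17 (SE 0.25).

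Genes of G2 and mitosis, which p53 lowers through p21, had higher means on arrays labelled Tfrc-null in all 14 measured. Their median was 0.14. A higher mean was also found for 57.8% of all genes above the control level on at least 2 arrays. Of the 14, 5 lay higher without overlap, as did 20.6% of all genes. Among genes above that level, 36.2% were apart in either direction. Aurka and Plk1 had the largest differences, both 0.56 (SE 0.30 each), and Cdk1 read 1516 and 1437 against 1145 and 1219.9 (0.32, SE 0.18). None passed the threshold, and 7 of 14 were higher without wildtype replicate 2 and 13 of 14 after quantile normalization. Of 10 genes of the integrated stress response, which also raises Sesn2 and Ddit4, 7 had higher means (3 without labelled Tfrc-null replicate 2), with Asns at 831 and 1229.5 against 397 and 837 (0.81, SE 0.41) and Ddit3 at 127.5 and 179.6 against 88.7 and 124.6 (0.53, SE 0.28).

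**Figure D5:**
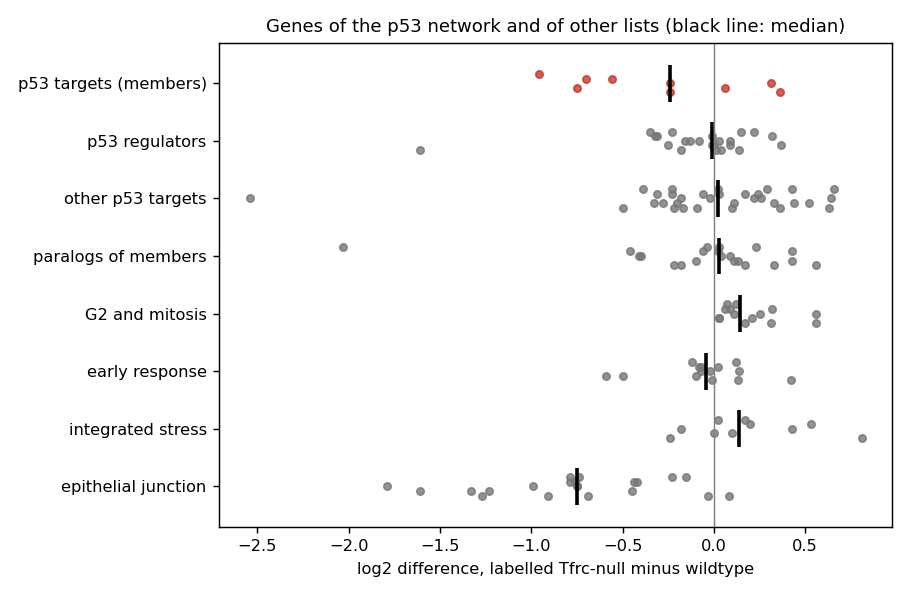
Log2 difference, labelled Tfrc-null minus wildtype (horizontal axis), of single genes in 8 lists, with the p53 target genes in red and other lists in grey, and black lines at the list medians. The medians of the p53 regulators, the other p53 targets and the paralogs lie within 0.03 of 0. That of the p53 target genes lies at -0.24 and that of the epithelial junction list, which includes keratin genes, at -0.75.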

How the data were processed

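The authors deposited linear probe set intensities from 4 arrays hybridised with RNA amplified from 50 ng per sample, per the labels' protocols. RMA, which adjusts background and equalises arrays, is the only tool in the submitters' processing notes, so a shift shared by most genes would have been removed. Values were converted to log2 and used as they stood. In the platform annotation 34958 probe sets carried 1 symbol, 932 several and 9211 none. Symbols were updated through RefSeq, which held 18033 of 18194 genes. Each gene was represented by its brightest probe set. Differences were fitted with limma 3.58.1 in R 4.3.3 (lmFit, eBayes) without a block and adjusted by Benjamini-Hochberg over all 18194 genes, and a second fit took 45037 probe sets. The scripts were tested on simulated data. With 2 arrays a group, an exact permutation test cannot go below 0.333, and p-values measure the spread between these samples, whose animals are not named. The number of arrays limits the precision.

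Genes were named from a rule taking every member, Tfrc, up to 4 genes per list with the smallest p and 3 genes nearest to Cdkn1a. Members and lists were chosen with earlier results of these data known. Hspa1a, Hspa1b, Mdm4, Ppm1d, Bbc3, Fas, Tnfrsf10b, Pmaip1, Pidd1, Eda2r and Sesn3 were named after their values were seen. So were Krt7, Dsp, Dsg2, Pkp2, Ppl, Evpl, Bad, Bok, Bcl2l1, Bcl2l11, Mcl1, Bid and the markers at or below the control level. Alternatives were leaving out each array, the replicate number as a block, quantile normalization, the mean of all probe sets, a filter on dim probe sets, a variance trend and an added constant of 16.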

Additional observations from a re-analysis of the deposited data

How the results depend on the processing

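Over 10 alternatives, 0 members passed the threshold, and the adjusted p of single members ran from 0.171 to 1. Of 90 differences recomputed for single members, 83 kept their direction, and the 7 that turned all came from leaving out 1 array. Without wildtype replicate 1 these were Cdkn1a (-0.12), Mdm2 (-0.01), Sesn1 (0.07) and Phlda3 (0.43). Without labelled Tfrc-null replicate 1 it was Mdm2 (-0.07), and without labelled Tfrc-null replicate 2 Sesn1 (0.00) and Phlda3 (0.03). Over these refits the difference ran from -0.12 to 0.85 for Cdkn1a, -0.07 to 0.18 for Mdm2, -0.56 to 0.07 for Sesn1 and -0.91 to 0.43 for Phlda3, the members' median ran from -0.59 to 0.00, the number without overlap from 5 to 8, and 1 member was at least 2-fold apart each time, which was Perp or Plk2. Fewer arrays make overlap rarer by construction: 8 of 9 members were apart without wildtype replicate 2, as were 13002 of 18194 genes. The lone array left in a group is assumed to vary like the others.

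Over all genes, 2 passed with the replicate number as a block (Stfa3 and Stfa2l1), 2 with a variance trend (the same genes) and 1 when probe sets were averaged per gene (Stfa3), none a member, and 3 of all probe sets passed with the trend. The cause was not tested. The labels do not say what same-numbered arrays share. With 2 pairs the numbers were not taken as a pairing, though deviations of same-numbered arrays from their group means correlated at 0.512 across genes, and under the replicate block 4 members had an unadjusted p under 0.05, against 2 without it, as did 2691 of 18194 genes, against 1459. Refits of the other gene lists were chosen after seeing the data. All members lay above the control level in the probe set used, and the dim second probe sets lay closest to it. An added constant shrinks differences between arrays by construction, most where intensity is low, so the smaller values do not show an effect of low signal. With the added constant of 16 the difference was -0.41 for Ddit4l, against -0.56 without it, and -0.88 for Perp, against -0.96.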
